A study of Mus musculus with 2 samples.

Results

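Follicular helper-like CD4 T cells from spleens of PEP-WT and PEP-619WW mice with a viral infection were chosen by the transcripts that each barcode held. A cell was selected on having at least 1 UMI (unique molecular identifier, 1 captured transcript) of *Cd3e*, at least 2 UMIs summed over *Izumo1r*, *Sostdc1*, *Tbc1d4* and *Cxcr5*, and no UMI of *Cd8a*, *Cd8b1*, *Foxp3*, *Cd79a* or *Csf1r*, with no more than 1 UMI of *Lyz2*. *Cd4* itself was not required. The rule found 162 of 14821 cells in the PEP-WT library and 95 of 8576 in the PEP-619WW library, 257 of 23397 cells in all.

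Spleens were collected on day 8 after infection with LCMV-cl13 (1000000 PFU), the clone 13 form of lymphocytic choriomeningitis virus, which establishes persistent infection. PEP-WT mice were C57BL/6. PEP-619WW mice carried, on the same background, a *Ptpn22* allele edited to change residue 619 of PEP, the phosphatase that the gene encodes, which models a human variant linked to autoimmune disease. Splenocytes of 4 to 5 mice per genotype, from a study that used animals of 6 to 12 weeks, were pooled and sorted as live CD45+ cells, so each genotype was 1 library with no replicate. Differences are therefore given with exact 95% intervals that cover counting error only, and genotype, mouse and library cannot be told apart. The sample labels name liver, a Jurkat cell line and cells that infiltrate a tumor, whereas the protocol in the same labels describes splenocytes.

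Follicular helper T cells are CD4 T cells that move into B cell follicles and help B cells to form germinal centers and make antibody of high affinity. The transcriptional repressor *Bcl6* keeps the program going, CXCR5 guides the cells to the follicle, and ICOS, SAP and the cytokine IL-21 carry the help. In persistent LCMV infection much of the CD4 response takes this form, beside Th1 cells that make interferon-γ.

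The libraries differed in depth. The chosen cells held 935524 UMIs in PEP-WT (median 4355 per cell) and 637762 in PEP-619WW (median 5560), and levels are given as counts per 1000000 UMIs (CPM) summed over the cells of a library. Mitochondrial transcripts took 2.95% and 3.46% of the UMIs and ribosomal protein transcripts 28.6% and 28.7%. None of the chosen barcodes occurred in the other library, although the whole libraries shared 39. A further deposited run, called run 2, had 1 library per genotype with 9539 PEP-WT and 11029 PEP-619WW cells, of which 1 and 57 met the rule, so genotypes were compared in run 1 only. The study's methods describe a single pair of splenic libraries and give for it the cell numbers of run 2, not those of run 1. The account of spleens, mice and sorting above is the one that the labels attach to both runs, and how run 1 was made was not described apart from it.

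Genes that the rule did not use set the chosen cells near the follicular helper program. These levels describe the cells without a test, since the selection and the genes came from the same counts. *Tnfsf8*, which encodes CD30 ligand, stood at 527.6 CPM, against 90.3 CPM in Th1-like CD4 T cells, 167 CPM in naive-like CD4 T cells and 31.2 CPM in CD8 T cells. *Il21*, the cytokine of B cell help, stood at 77.5 CPM, against 24.4 CPM in Th1-like cells, no UMI in naive-like cells and 2.26 CPM in CD8 T cells. The inhibitory receptor gene *Pdcd1* followed at 218 CPM, against 122 CPM in Th1-like and 98.4 CPM in CD8 T cells. The costimulatory receptor gene *Icos* reached 381 CPM, against 237 CPM and 111 CPM in those cells. *Bcl6* was sparse at 38.1 CPM with a UMI in 19.5% of cells, against 2.44 CPM in Th1-like, 30.4 CPM in naive-like and 6.28 CPM in CD8 T cells. The transcription factor gene *Tox2* was at 108 CPM, against 19.5 CPM in Th1-like cells. Regulatory T-like cells, which have a *Foxp3* UMI, held *Tnfsf8* at 58.5 CPM, *Il21* at 2.93 CPM, *Pdcd1* at 67.3 CPM, *Icos* at 260.4 CPM, *Bcl6* at 14.6 CPM and *Tox2* at 23.4 CPM. Among these 5 types of T cell each of the 6 genes was thus highest in the chosen cells, although for *Bcl6* the naive-like cells came close. Not every follicular helper gene was: *Tnfrsf4*, which encodes OX40, was at 369 CPM in the chosen cells and 977 CPM in regulatory T-like cells. The comparison cells had *Cd3e* and *Cd4* UMIs and no UMI of the rule's 4 markers, with at least 2 UMIs of *Cxcr6*, *Nkg7*, *Ccl5* and *Ly6c2* for the 58 Th1-like cells, or of 4 naive T cell markers, *Ccr7* and *Lef1* among them, and none of the Th1 markers for the 47 naive-like cells.

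**Figure D1:**
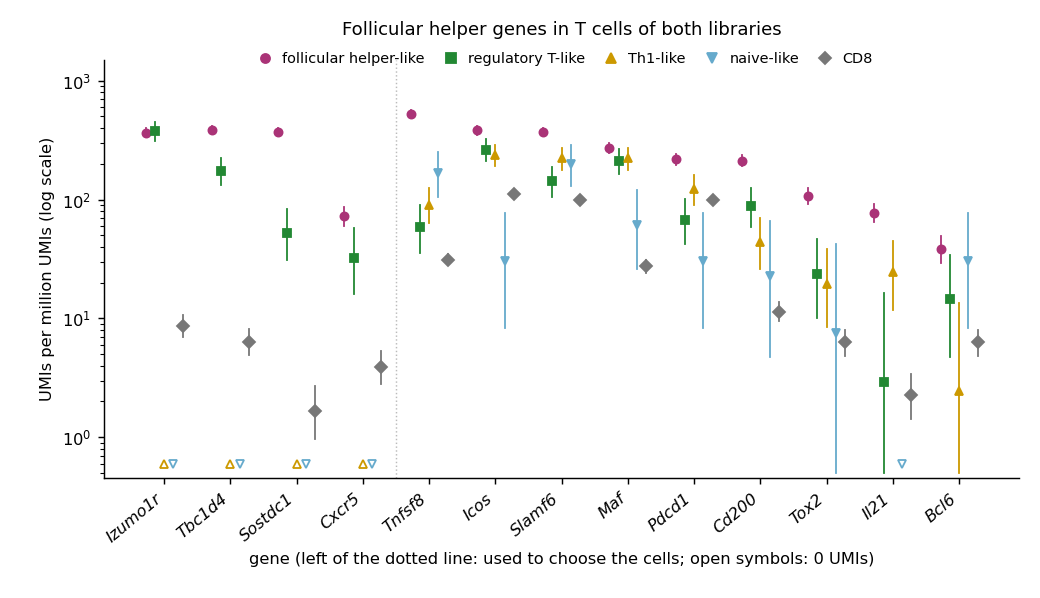
Level of the rule's markers (left of the dotted line) and of other follicular helper genes, in CPM on a log axis, summed over both libraries for each type of T cell (bars are exact 95% Poisson intervals, counting error only; open symbols at the lower edge had 0 UMIs). To the right of the line, *Tnfsf8* at 527.6 CPM and *Il21* at 77.5 CPM stood highest in the follicular helper-like cells.

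A ranking against the 135 other CD4 T cells was made after the data were seen. It took genes with at least 100 UMIs in the chosen cells and a UMI in the other CD4 T cells of each library. Genes of the rule, unnamed genes and immunoglobulin, hemoglobin, receptor variable, ribosomal and mitochondrial genes were left out. Highest in both libraries were *Angptl2*, *Nt5e*, *Hivep3* and *Cd200*. *Angptl2* was at 111 CPM against 4.85 CPM, the latter from 1 UMI in PEP-WT and 2 in PEP-619WW. *Nt5e*, which encodes the ectoenzyme CD73, was at 116 CPM against 16.2 CPM, *Hivep3* at 84.5 CPM against 11.3 CPM and *Cd200*, which encodes an inhibitory ligand, at 212 CPM against 35.6 CPM. *Ikzf2*, which encodes Helios and is widely used as a regulatory T cell marker, was at 436 CPM against 84.1 CPM, and at 848 CPM in regulatory T-like cells. For the lowest genes the ranking took those with at least 100 UMIs in the other CD4 T cells and a UMI in the chosen cells of each library. Lowest were *Ccl5*, a chemokine of effector cells, at 285 CPM against 3361 CPM, and *Gzmb*, which encodes granzyme B, at 24.2 CPM against 320.1 CPM. *Lgals3*, which encodes galectin-3, followed at 98.5 CPM against 681 CPM, and *Rasgrp2* at 41.95 CPM against 241 CPM.

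The rule's own markers were held unevenly. *Izumo1r*, which encodes folate receptor 4, had a UMI in 74.7% of cells in PEP-WT and 72.6% in PEP-619WW, *Tbc1d4* in 74.7% of each, *Sostdc1* in 38.9% and 33.7% and *Cxcr5* in 30.9% and 31.6%. In B cells, which should lack the T cell genes among them, *Izumo1r* had a UMI in 0.633% and 0.459% of cells, at medians of 2693 and 3421 UMIs per cell, whereas *Cxcr5*, which B cells express, had one in 19.97% and 18.5%. A *Trac* UMI was found in 93.8% and 96.8% of the chosen cells and a *Trdc* UMI in 1.23% and 0%. *Trac* and *Trdc* encode constant regions of the αβ and γδ receptors. *Cd4* had a UMI in 59.9% and 76.8% of them, and at 2000 UMIs per cell in 37.4% (55 of 147) and 39.8% (37 of 93), against 0.541% and 0.648% of B cells at full depth.

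Next to the threshold, levels of follicular helper genes were lower. Of the cells that met every other criterion, 303 PEP-WT and 138 PEP-619WW cells had none of the marker UMIs, 77 and 36 had 1, and 33 and 21 of the chosen cells had exactly 2. *Pdcd1* was at 116 CPM in cells with 1 marker UMI, at 110.0 CPM in those with 2 and at 247 CPM in those with 3 or more. *Icos* was at 232 CPM, 238 CPM and 420.4 CPM in the same order, and *Il21* at 23.2 CPM, 32.7 CPM and 89.7 CPM. The libraries differed here: *Il21* with 2 and with 3 or more marker UMIs was at 10.2 CPM and 86.6 CPM in PEP-WT but at 64.3 CPM and 94.4 CPM in PEP-619WW, from 2 and 9 UMIs in the cells with 2. The cells just inside and just outside the rule were thus alike in *Pdcd1* and *Icos*, below those with more marker UMIs.

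Other cell types left transcripts in the chosen cells. A UMI of *Cd79b*, *Ms4a1*, *Ly6d*, *Fcer1g* or *C1qa*, or 2 or more of *Tyrobp* or *Cst3*, was carried by 33.3% of the chosen cells in PEP-WT and by 34.7% in PEP-619WW. The 8 B cell genes summed to 57.7 CPM and 67.4 CPM, the 10 myeloid genes to 429 CPM and 546 CPM, and the 5 natural killer cell genes to 27.8 CPM and 43.9 CPM. Immunoglobulin genes summed to 4742 CPM and 2518 CPM, and hemoglobin and other red cell genes to 3188 CPM and 43.9 CPM. Whether these came from free RNA or from doublets was not tested, and no doublet caller was run.

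The first comparison asked how common the cells were. They made up 1.09% (0.932 to 1.27) of PEP-WT cells and 1.11% (0.897 to 1.35) of PEP-619WW cells, a difference of 0.0147 percentage points (-0.255 to 0.304). Of CD8-negative, *Foxp3*-negative T cells they made up 29.9% (26.1 to 33.9) in PEP-WT and 35.3% (29.6 to 41.4) in PEP-619WW, a difference of 5.43 points (-1.34 to 12.4). With *Cd4* required of the chosen cells, but not of the T cells they were divided by, the difference was 9.24 points (3.196 to 15.6). That value was not evened for depth. A *Cd4* UMI was found in 59.9% and 76.8% of the chosen cells at full depth, but in 37.4% and 39.8% at 2000 UMIs. Since the rule needs UMIs and the PEP-619WW T cells were deeper, cells with at least 2000 UMIs were also thinned to that number, without the 4181 shallower cells of PEP-WT and 2429 of PEP-619WW, which gave shares of 20.1% of 418 and 20.6% of 253 T cells. At 4000 UMIs, which 164 PEP-WT and 174 PEP-619WW T cells reached, the shares were 50% and 35.6%, a difference of -14.4 points (-24.5 to -3.82). That depth also left out every shallower cell. At each thinned depth the whole rule was applied after thinning. A cell that lost its *Cd8a*, *Cd8b1* or *Foxp3* UMIs could thus enter the T cells that the shares were taken of. The share of all cells was higher in PEP-619WW by 0.0147 to 0.194 points at full depth and at each of the 3 thinned depths, with intervals that held 0.

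The second comparison asked how gene expression in these cells differed with the *Ptpn22* allele. Of 4241 genes with at least 50 UMIs over both libraries, 72 (1.7%) were at least 2-fold higher and 84 (1.98%) at least 2-fold lower in PEP-619WW, 3.68% in either direction. The median log2 ratio over all 4241 genes, here always PEP-619WW over PEP-WT, was -0.00294. In 5 of the 72 and 12 of the 84, a single cell held 50% or more of the UMIs of the higher library. Without the cells that carried UMIs of another cell type, 2577 genes could be compared, of which 34 were at least 2-fold higher and 58 lower. *Ptpn22* itself (chromosome 3 of GRCm38, 103859795 to 103912247) was at 192 CPM in PEP-WT and 241 CPM in PEP-619WW, a log2 ratio of 0.33 (0.01 to 0.65). The 3' counts do not read the edited residue, so they are no check of the genotype.

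**Figure D2:**
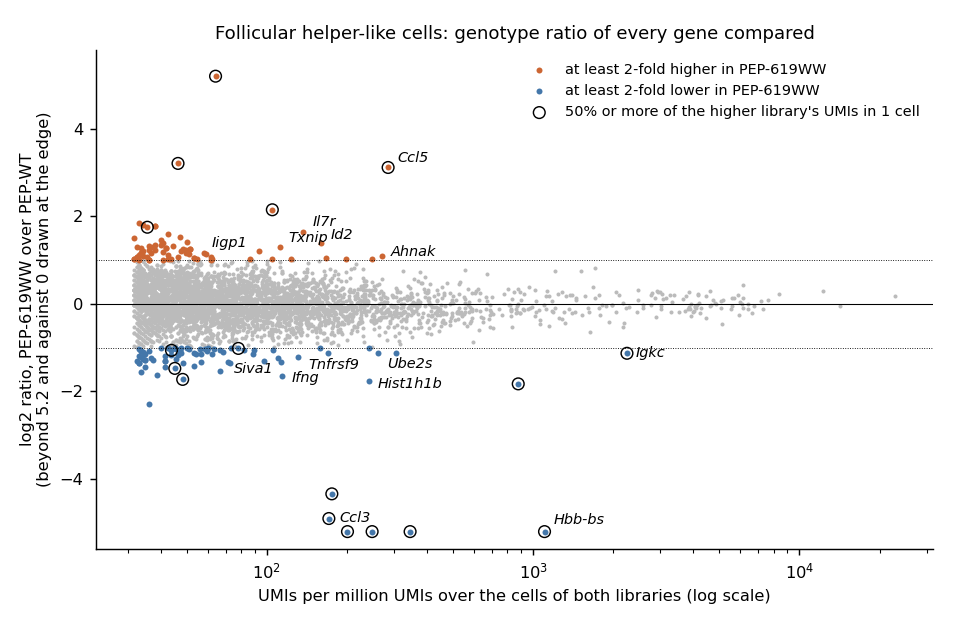
Log2 ratio of PEP-619WW over PEP-WT against the level over the cells of both libraries, in CPM on a log axis, for each of the 4241 genes compared in the chosen cells. Dotted lines mark 2-fold, values beyond 5.2 or against 0 UMIs are drawn at the edge, and circled genes had 50% or more of the higher library's UMIs in 1 cell: 72 genes lay above and 84 below the lines.

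The follicular helper genes had a median log2 ratio of 0.08. Of 39 genes compared, transcription factors, receptors and other markers without those of the rule, none reached 2-fold in either direction, against 3.68% of all genes. So short a list cannot set this apart from that share. Of the cytokines, which were kept as a list of their own, *Il21* and *Ifng* could be compared, and *Ifng* was 2-fold lower. The interval lay above 0 for 9 and below 0 for 3, and over all 4241 genes above 0 for 474 and below 0 for 499. Among the transcription factors, *Bcl6* was at 33.1 CPM in PEP-WT and 45.5 CPM in PEP-619WW, a log2 ratio of 0.46 (-0.33 to 1.23). *Batf*, an AP-1 factor needed for the program, was at 469 CPM and 370.0 CPM, a ratio of -0.34 (-0.58 to -0.11). *Tcf7*, which acts ahead of *Bcl6*, was at 431 CPM and 511 CPM (0.25, 0.03 to 0.46).

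The receptors moved both ways, all by less than 2-fold. *Cd200* was at 162 CPM in PEP-WT and 285 CPM in PEP-619WW, a log2 ratio of 0.81 (0.49 to 1.13). *Icos* was at 330.3 CPM and 456 CPM (0.47, 0.23 to 0.70), and *Slamf6*, a self-ligand of the SAP pathway, at 314 CPM and 452 CPM (0.52, 0.28 to 0.76). *Pdcd1*, by contrast, was at 253 CPM and 166 CPM, a ratio of -0.61 (-0.95 to -0.27). *Sh2d1a*, which encodes SAP, was at 360.2 CPM and 364 CPM, and *Tnfsf8* at 541 CPM and 508 CPM. The help cytokine *Il21* was at 70.6 CPM and 87.8 CPM, a log2 ratio of 0.32 whose interval held 0 (-0.22 to 0.85). *Il4* had 21 and 6 UMIs, too few to compare.

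Of 9 genes that oppose or compete with the program, 6 had a ratio above 0 and 3 below. *Id2*, an inhibitor of E proteins that favors Th1 over follicular helper fate, was at 96.2 CPM in PEP-WT and 254 CPM in PEP-619WW, a log2 ratio of 1.40 (1.02 to 1.79), and had a UMI in 34.0% and 53.7% of cells. At 2000 UMIs per cell these shares were 17.7% (11.9 to 24.8) and 22.6% (14.6 to 32.4), with intervals that overlapped. At a marker sum of at least 3 the ratio of *Id2* was 0.98, short of 2-fold, and in PEP-619WW its level was 436 CPM in cells with 2 marker UMIs and 203 CPM in those with 3 or more. *Id2* was the only one of the 9 past 2-fold, a share that so short a list cannot set apart from the 3.68% of all genes, and their median was 0.55, against 0.58 in other CD4 and 0.17 in CD8 T cells. *Klf2*, which keeps T cells out of the follicle, was at 176 CPM and 306 CPM (0.79, 0.49 to 1.10), and *Selplg*, the P-selectin ligand, at 84.4 CPM and 152 CPM (0.85, 0.41 to 1.30). *Id2* also stood higher in other CD4 T cells (1.28), and in CD8 T cells its ratio was 0.71. The other CD4 T cells held 23 Th1-like of 82 cells in PEP-WT and 35 of 53 in PEP-619WW. Within Th1-like cells the ratio of *Id2* was 0.75, and within naive-like cells 0.03 from 7 UMIs. Without cycling cells its ratio in the chosen cells was 0.94.

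Th1 and effector genes had a median log2 ratio of 0.56 over 27 genes, 8 of them at least 2-fold higher and 3 lower in PEP-619WW, against 1.7% and 1.98% of all genes. Without the highest cell of each library for each gene, 5 were higher and 2 lower, and without cycling cells, which left 21 genes to compare, 2 and 0. The same list had medians of 0.96 in other CD4 T cells and 0.42 in CD8 T cells. Of the other CD4 T cells 23 of 82 were Th1-like in PEP-WT and 35 of 53 in PEP-619WW, so pooled ratios there cannot tell composition from level. *Il18r1*, a receptor chain for IL-18, was at 86.6 CPM in PEP-WT and 177 CPM in PEP-619WW, a ratio of 1.03 (0.61 to 1.46), and at 103 CPM and 420 CPM in other CD4 T cells. Its ratio fell short of 2-fold under 4 alternative settings, with the lowest value, 0.51, at a marker sum of at least 3. *Itga4*, an integrin chain of homing, was at 175 CPM and 356 CPM (1.02, 0.73 to 1.32), and *Ahnak*, a large scaffold protein, at 186 CPM and 395 CPM (1.09, 0.80 to 1.37). *Ahnak* fell short of 2-fold with *Cd4* required (0.84), at a marker sum of at least 3 (0.87), without cycling cells (0.91) and as the mean over cells of CPM (0.99). Also past 2-fold were *Ifngr1*, the receptor for interferon-γ, at 28.9 CPM and 62.7 CPM, and *Ctla2a*, a protease inhibitor, at 18.2 CPM and 51.7 CPM. *Id2*, given above among the opposing genes, was in this list too. *S100a4*, a calcium-binding protein of effector cells, was below 2-fold, at 1307 CPM and 2291 CPM. *Cxcr3*, the Th1 chemokine receptor, was at 125 CPM and 166 CPM, and *Nkg7* at 217 CPM and 223 CPM. At least 2 UMIs of the 4 Th1 markers were found in 30.9% (23.9 to 38.6) of cells in PEP-WT and 41.1% (31.1 to 51.6) in PEP-619WW, not evened for depth and with intervals that overlapped.

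For the cytokines of this list, single cells held a large part of the UMIs. *Ccl5* was at 69.5 CPM in PEP-WT and 602 CPM in PEP-619WW, the largest ratio among the genes named by rank (3.12, 2.73 to 3.52), but 1 PEP-619WW cell held 236 of its 384 UMIs. That cell was also the source of 60 of the 63 *Gzma* UMIs of its library. Without the highest cell of each library the ratio of *Ccl5* was 2.03, and without cycling cells 0.65, at 93.7 CPM and 147 CPM. In B cells *Ccl5*, 1 of the 4 Th1 markers counted above, had a UMI in 10.4% and 20.8% of cells, at 83.0 CPM and 107 CPM. The chosen PEP-WT cells thus held no more *Ccl5* than B cells. *Ifng* was at 158 CPM in PEP-WT and 50.2 CPM in PEP-619WW (-1.66, -2.26 to -1.10). In *Ifng*, 1 PEP-WT cell held 41.9% of the UMIs, and the same cell held 90.9% of *Ccl3* and 92.5% of *Ccl4*. The ratio of *Ifng* was -1.41 without the highest cell, -0.74 without cycling cells and -0.01 in the 108 and 62 cells without a UMI of another cell type. In the other T cells *Ifng* ran the opposite way, with ratios of 1.71 in other CD4, 1.18 in the Th1-like cells among them and 0.43 in CD8 T cells.

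**Figure D3:**
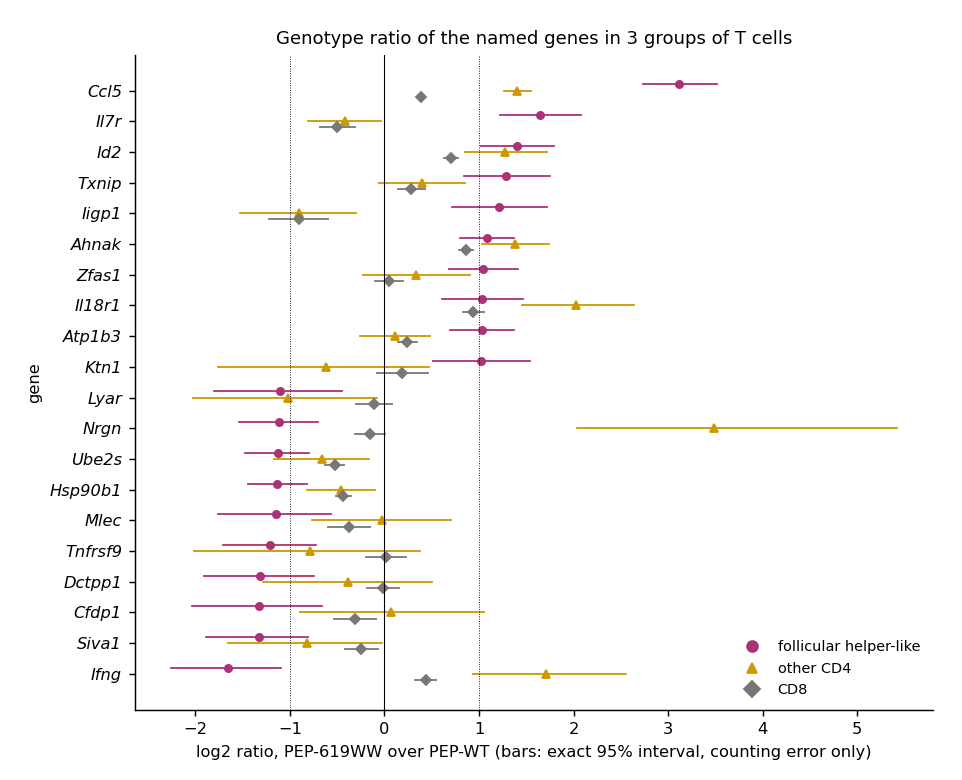
Log2 ratios of the 10 genes highest and the 10 lowest in PEP-619WW among those that met the naming rule, in the chosen cells, other CD4 T cells and CD8 T cells (bars are exact 95% intervals, counting error only). *Il7r* lay at 1.64 in the chosen cells and below 0 in both other groups.

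Interleukin-7 receptor and homing genes were part of a further list. *Il7r* (chromosome 15 of GRCm38, 9505788 to 9530176), the receptor chain for the survival cytokine IL-7, was at 73.8 CPM in PEP-WT and 230.5 CPM in PEP-619WW, a log2 ratio of 1.64 (1.22 to 2.08). It had a UMI in 18.5% and 43.2% of cells, against 1.82% and 3.86% of B cells. No cell held more than 13.0% of the UMIs, and the ratio was 1.72 without the highest cell and 1.80 without cycling cells. The ratio stayed between 1.39 and 1.80 over the 9 alternative settings that gave a value, and thinning to 2000 or 1000 UMIs gave none.

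In other CD4 T cells *Il7r* was at 434 CPM in PEP-WT and 325 CPM in PEP-619WW (-0.42), and in CD8 T cells at 116 CPM and 82.5 CPM (-0.50). The other CD4 T cells were a mixture of unequal parts, with 36 naive-like and 23 Th1-like of 82 cells in PEP-WT and 11 and 35 of 53 in PEP-619WW. Within Th1-like cells *Il7r* was at 72.8 CPM and 205 CPM (1.49, 0.54 to 2.58), and within naive-like cells at 877 CPM and 1049 CPM (0.26, -0.33 to 0.82). The negative ratio of the pooled other CD4 T cells was thus not found in either of these subsets. *Ccr7*, the receptor for entry to lymph nodes, was at 21.4 CPM and 51.7 CPM in the chosen cells (1.28, 0.43 to 2.15). The naive and homing list had 12 of 13 genes above 0, where 2112 of all 4241 genes were, and a median of 0.48. At least 2-fold higher were 2 of its genes, *Il7r* and *Ccr7*, against 1.7% of all genes. Without cycling cells 1 of 11 genes was, with a median of 0.24. The median was 0.21 without cells with UMIs of other types and 0.045 at 2000 UMIs per cell. *Lef1*, a partner of *Tcf7*, was at 125 CPM and 174 CPM. At least 2 UMIs of the 4 naive markers were found in 25.3% (18.8 to 32.7) of cells in PEP-WT and 40% (30.1 to 50.6) in PEP-619WW, again not evened for depth and with overlapping intervals.

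Other genes named by rank as higher in PEP-619WW were *Txnip*, a thioredoxin inhibitor, at 70.6 CPM in PEP-WT and 172 CPM in PEP-619WW (1.29), the noncoding RNA *Zfas1* at 117 CPM and 239.9 CPM (1.04), *Atp1b3*, a sodium pump subunit, at 139 CPM and 284 CPM (1.03), and *Ktn1* at 60.9 CPM and 124 CPM (1.02). Among survival genes *Bcl2l11*, which encodes the death-promoting protein BIM, was at 23.5 CPM and 64.3 CPM (1.45, 0.67 to 2.27), while *Bcl2* was at 217 CPM and 256 CPM. Of 14 cytokine receptor genes, 4 were at least 2-fold higher and none lower, against 1.7% and 1.98% of all genes: *Il7r*, *Il18r1*, *Ifngr1* and *Il10rb*. Without the highest cell of each library for each gene 3 were higher, and without cycling cells 2 of the 11 left to compare. *Il18r1* and *Ifngr1* were also counted in the Th1 and effector list, and *Il7r* in the naive and homing list. The cytokine receptor list had a median of 0.26, against 0.25 in other CD4 and 0.12 in CD8 T cells.

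Cell cycle genes made up 7 of the 84 genes at least 2-fold lower in PEP-619WW. Of the 28 compared, where 1.98% of all genes were 2-fold lower, none was 2-fold higher and 27 had a ratio below 0. Their median was -0.72, against -0.39 in other CD4 and -0.12 in CD8 T cells. Without the highest cell of each library for each gene, 16 cell cycle genes were at least 2-fold lower, with a median of -1.06, and 122 of all 4241 genes were. That setting is no check of this list, since 1 cell weighs more where fewer cells were in cycle. For *Hist1h1b* the highest cell held 48.4% of the UMIs in PEP-619WW and 13.3% in PEP-WT. *Hist1h1b*, a linker histone made in S phase, was at 338 CPM in PEP-WT and 100.3 CPM in PEP-619WW (-1.75, -2.16 to -1.36). *Cdk1*, the mitotic kinase, was at 96.2 CPM and 37.6 CPM (-1.35), *Birc5*, which encodes survivin, at 143 CPM and 61.2 CPM (-1.23), and *Mki67* at 137 CPM and 72.1 CPM (-0.92).

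The share of chosen cells in cycle was lower in PEP-619WW by a difference whose interval held 0 at full depth. Cells with at least 3 UMIs over 13 cell cycle genes numbered 35 of 162 (21.6%, 15.5 to 28.7) in PEP-WT and 13 of 95 (13.7%, 7.49 to 22.3) in PEP-619WW, a difference of -7.92 points (-16.8 to 2.14). Without the 5 deepest of the chosen cells the difference was -9.76 points, with an interval (-18.2 to -0.0264) just short of 0. In other CD4 T cells the shares were 15.9% and 24.5%, at medians of 2480 and 4921 UMIs per cell, and in CD8 T cells 33.2% and 39.6%, at medians of 4543 and 6916.5. These shares were not evened for depth, and the medians of the cell cycle list in those cells, scaled for depth, were below 0 as in the chosen cells. At 2000 UMIs per cell, 22 of 147 (14.97%, 9.62 to 21.8) and 4 of 93 (4.30%, 1.18 to 10.6) of the chosen cells were in cycle. When the rule was applied after thinning instead, the difference was -5.22 points (-12.96 to 3.83) at 2000 UMIs and -1.26 points (-13.7 to 14.7) at 1000, both with intervals that held 0. The cycling cells at full depth were large, with medians of 9416 and 9313 UMIs, and held 40.7% of the UMIs of the chosen PEP-WT cells and 26.3% of those in PEP-619WW. Without them 2964 genes still had 50 UMIs and could be compared, of which 40 were at least 2-fold higher, 22 of these among the 72, and 28 lower, 20 of these among the 84. Fewer genes, fewer UMIs and the absence of cycling cells cannot be told apart in these counts.

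**Figure D4:**
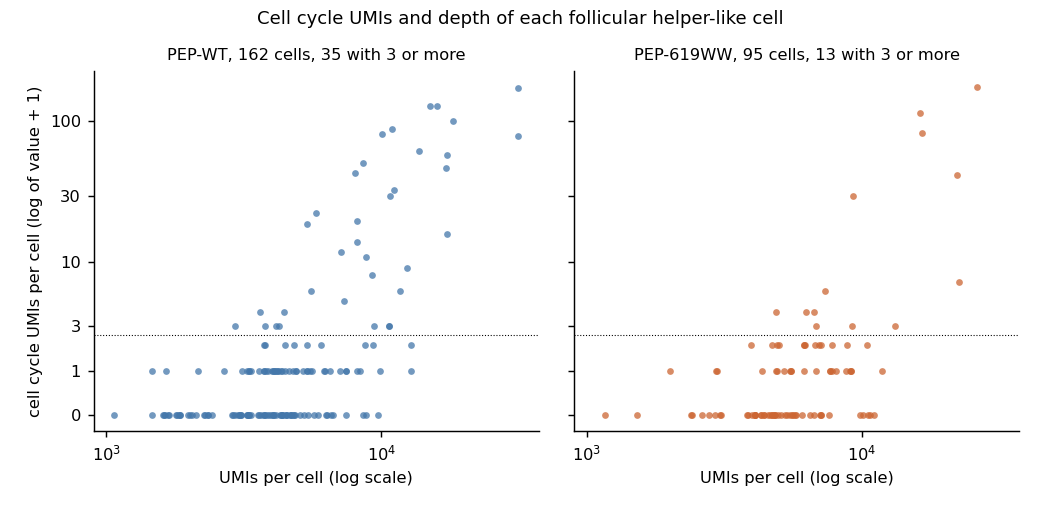
Cell cycle UMIs of each chosen cell (log of the value + 1) against its UMIs in all (log axis), 1 point per cell, with PEP-WT on the left and PEP-619WW on the right; cells above the dotted line had at least 3 cell cycle UMIs. There were 35 such cells of 162 in PEP-WT and 13 of 95 in PEP-619WW, and the cells with the most cell cycle UMIs were among the deepest in both libraries.

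Further genes lower in PEP-619WW were named by rank or were single members of a list past 2-fold. *Tnfrsf9*, which encodes the activation receptor 4-1BB, was at 170.0 CPM in PEP-WT and 73.7 CPM in PEP-619WW (-1.21, -1.71 to -0.73), and was at -0.90 without cycling cells. *Nr4a1*, an early gene of T cell receptor signaling, was at 59.9 CPM and 26.7 CPM (-1.17, -2.04 to -0.36), and *Pgam1*, the only one of 11 glycolysis genes past 2-fold, where 3.68% of all genes were, at 305 CPM and 152 CPM. *Ube2s*, a mitotic ubiquitin ligase partner, was at 336 CPM and 154 CPM, but at -0.46 without cycling cells. *Dctpp1*, which clears nucleotides, was at 128 CPM and 51.7 CPM (-1.31), and *Siva1*, an apoptosis gene, at 150 CPM and 59.6 CPM (-1.33). *Cfdp1* was at 94.1 CPM and 37.6 CPM (-1.32), *Mlec*, a lectin of the endoplasmic reticulum, at 114 CPM and 51.7 CPM (-1.14), and *Lyar*, a nucleolar protein, at 87.7 CPM and 40.8 CPM (-1.10). The ratio of *Lyar* was -0.53 with *Cd4* required, -0.69 at a marker sum of at least 3 and -2.16 without cells with UMIs of other types.

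Some of these ratios depended on cells or on neighbors. *Hsp90b1*, a chaperone of the endoplasmic reticulum, was at 391 CPM in PEP-WT and 179 CPM in PEP-619WW (-1.13), and 1 PEP-WT cell held 39.1% of its UMIs, with a ratio of -0.60 without the highest cells, -0.40 without cells that carried UMIs of another type and -0.01 at 2000 UMIs per cell. The same cell held 78.4% of the *Igkc* and 85.9% of the *Ighg2c* UMIs of its library, and without the highest cells both were higher in PEP-619WW, with ratios of 0.81 and 0.96. *Nrgn*, a calmodulin-binding protein, was at 217 CPM and 100.3 CPM in the chosen cells (-1.11), but at 13.3 CPM and 148 CPM in other CD4 T cells (3.48). Another PEP-WT cell held 1318 of the 1722 *Hbb-bs* UMIs, and all 4 hemoglobin genes compared were lower in PEP-619WW, with a median of -6.60 and of -5.64 without the highest cells.

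T cell receptor signaling genes, the pathway that PEP dampens, had a median log2 ratio of 0.17, against 0.34 in other CD4 and 0.12 in CD8 T cells. The interval lay above 0 for 10 of the 32 compared and below 0 for none, and over all 4241 genes above 0 for 474 and below 0 for 499. Past 2-fold was 1 of the 32, near the 3.68% of all genes: *Nfatc2*, at 43.8 CPM in PEP-WT and 87.8 CPM in PEP-619WW (1.00, 0.40 to 1.62). Without cycling cells 29 genes of the list could be compared, with a median of 0.04 and none past 2-fold. *Lck*, a PEP substrate, was at 426 CPM and 447 CPM, and *Zap70*, another, at 251 CPM and 212 CPM. Of 22 genes induced by receptor signaling, *Nr4a1* alone passed 2-fold, and the median was 0.11.

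Interferon-stimulated genes lay on both sides of 0 in these cells. Of 53 genes compared none reached 2-fold, which so short a list cannot set apart from the 3.68% of all genes. The interval lay above 0 for 10 and below 0 for 7, and over all 4241 genes above 0 for 474 and below 0 for 499. The median of the list was 0.13, with 35 above 0 and 18 below, where 2112 of all 4241 genes were above 0. In other cells its medians were below 0, at -0.32 in other CD4 T cells, -0.48 in CD8 T cells and -0.60 in all other cells. The sum of the list's UMIs gave a ratio of -0.12, opposite in sign to its median, since the most abundant gene, *Ifi27l2a*, was at 5745 CPM in PEP-WT and 4165 CPM in PEP-619WW (-0.46). *Isg15*, a ubiquitin-like protein, was at 348 CPM and 249 CPM (-0.48, -0.77 to -0.21), against ratios of -1.19 in CD8 T cells and -1.46 in all other cells. *Irf7*, which amplifies interferon production, was at 174 CPM and 118 CPM (-0.57), and the antiviral tether gene *Bst2* at 361 CPM and 218 CPM (-0.73). *Sp100*, a nuclear body protein, was at 199 CPM and 285 CPM (0.52, 0.22 to 0.82). The median was -0.08 without cycling cells and -0.40 at 2000 UMIs per cell, so its sign was not fixed.

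**Figure D5:**
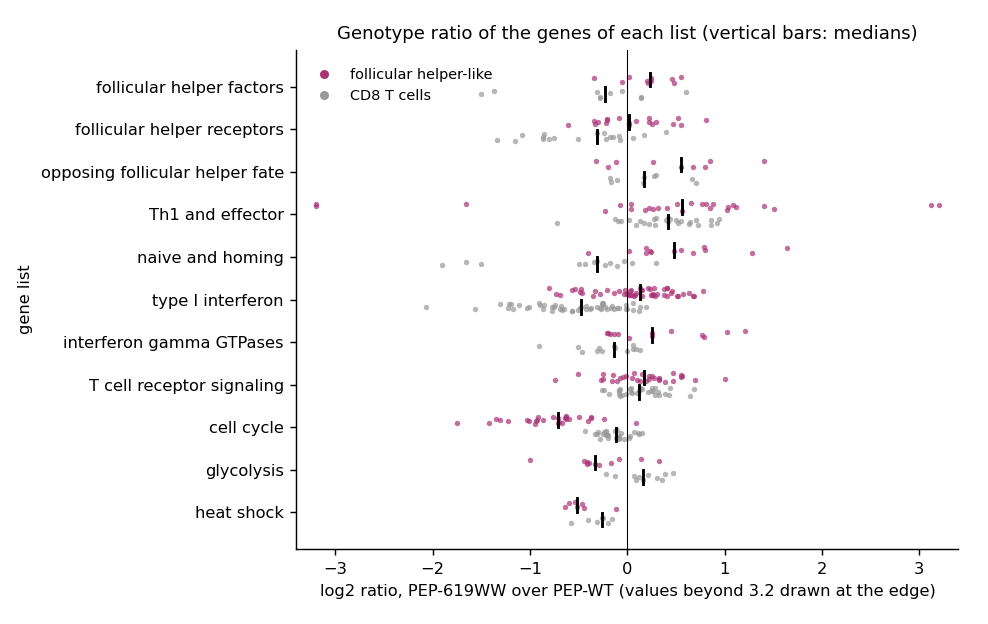
Log2 ratio of PEP-619WW over PEP-WT for each gene (points) of 11 gene lists, with vertical bars at the list medians, in the chosen cells and in CD8 T cells; the most extreme values are drawn at the edge. In the chosen cells the cell cycle list had its median at -0.72 and the Th1 and effector list at 0.56, against -0.12 and 0.42 in CD8 T cells.

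The 13 GTPases and other genes driven by interferon-γ had a median of 0.25, with 2 at least 2-fold higher, against 1.7% of all genes. Without cycling cells 1 of 11 was. *Iigp1*, an immunity-related GTPase, was at 60.9 CPM in PEP-WT and 141 CPM in PEP-619WW (1.21, 0.72 to 1.72), while its ratios were -0.91 in other CD4 and -0.90 in CD8 T cells. In the chosen cells it fell short of 2-fold without cells with UMIs of other types (0.86) and as the mean over cells of CPM (0.93). Within regulatory T-like cells it was at 195 CPM and 299 CPM, within naive-like cells at 275 CPM and 377 CPM, and within Th1-like cells at 172 CPM and 65.7 CPM. *Gbp9*, a guanylate-binding protein, was at 43.8 CPM and 89.4 CPM (1.03, 0.42 to 1.64). The 14 genes of class I antigen presentation had a median of 0.04 and 7 heat shock genes one of -0.52. None of either list was past 2-fold, from which nothing can be read at 3.68% of all genes.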

How the data were processed

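Single-cell 3' RNA libraries of CD45+ splenocytes, 1 per genotype and run, were analysed. The authors made the deposited UMI counts per gene and barcode, which are raw and not normalized, with Cell Ranger. The submitters' processing notes give version 6.0.0 on mm10, while the study's methods give a later version. Of 32285 genes, 32158 matched a symbol, and coordinates are those of GRCm38. Run 1 was used. The study's methods give the cell numbers of run 2 and do not mention another run, so the relation of run 1 to run 2 is unknown here.

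UMI counts were summed over the chosen cells of each library and scaled to counts per 1000000 UMIs. Genes with at least 50 UMIs, other than the 11 of the rule, were compared, and called at 2-fold or more. With 1 library per genotype no test was possible. Levels have exact Poisson intervals, shares Clopper-Pearson, differences of shares Newcombe and ratios exact conditional intervals, all at 95% and for counting error only. Depth was evened by thinning to 2000, 1000 or 4000 UMIs (seed 11). The calculation was tested on simulated data. Doublets and cells with UMIs of other types were kept.

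Named genes were the 10 highest and 10 lowest by ratio with at least 100 UMIs and a UMI in 20% or more of cells in the higher library (without immunoglobulin, hemoglobin, receptor variable, ribosomal, mitochondrial, rule and unnamed genes), *Ptpn22*, and, in the gene lists (426 genes, 421 measured), those past 2-fold and those with most UMIs. Other genes were picked after their values were seen. The chosen cells and lists were set with earlier results of these data known. Alternatives varied the marker sum, *Cd4*, other cell types' UMIs, depth, scaling, minimum count, fold, run, single cells and cycling cells. Tables were made with pandas 2.3.3 and numpy 2.4.6 in python 3.11.15, intervals with scipy 1.17.1 and plots with matplotlib 3.10.9. Reads and the other experiments of the study were not used here. Some genes of the lists are not reported here.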

Additional observations from a re-analysis of the deposited data

Results flagged for a closer look

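Only list genes past 2-fold, the genes named by rank and *Ptpn22* were screened here, not all 4241 genes. The share over all genes was not counted, so the number found cannot be read as many or few. For 8 of those screened the ratio of PEP-619WW over PEP-WT in the chosen cells had the opposite sign to that in both other CD4 T cells and CD8 T cells, with an interval of each difference that excluded 0. These intervals cover counting error only, and the differences were not tested over mice. *Il7r* (1.64), *Ccr7* (1.28) and *Iigp1* (1.21) were higher in PEP-619WW among the chosen cells and lower in both pooled groups, but within smaller groups of CD4 T cells *Il7r* (1.49) and *Ccr7* (1.55) were also above 0 in Th1-like cells, and *Iigp1* in regulatory T-like (0.62) and naive-like cells (0.45). *Ifng* (-1.66), *Ccl3* (-4.90) and *Ccl4* (-4.34) were lower, and 1 PEP-WT cell held 41.9%, 90.9% and 92.5% of their PEP-WT UMIs. *Ighg2c* (-1.83) and *Igkc* (-1.13) were lower, and another PEP-WT cell held 85.9% and 78.4% of theirs, and without the highest cells they were higher (0.96 and 0.81). In run 2, which the comparisons did not use, 57 PEP-619WW cells met the rule, against 1 PEP-WT cell. That run held 452 CD8-negative, *Foxp3*-negative T cells in PEP-619WW but 6 in PEP-WT.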

How the results depend on the processing

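No paired analysis was possible because each genotype had 1 library and no replicate to leave out. Of single genes, the full set of alternatives was run for the 20 named by rank and *Ptpn22* only. The direction of all 193 of their values was as reported, although *Ifng* came to -0.01 without cells with UMIs of other types and *Hsp90b1* to -0.01 at 2000 UMIs, and 148 of 183 values of those past 2-fold remained so. The 20 were picked by ratio in these cells. Most alternatives reuse the same cells or rescale all genes alike, so a kept direction is no independent check. Thinning to 2000 UMIs gave a value for *Ahnak*, *Zfas1*, *Atp1b3*, *Hsp90b1* and *Ptpn22* only, and thinning to 1000 for none. *Il7r*, *Id2*, *Ccl5* and *Ifng* thus had no ratio at even depth. Of 100 alternative values of the shares, counts and list medians, 79 stayed within set limits. These were the counting interval for shares and 1.5 times the count for counts. For medians the limit was an interval from the spread among the genes of the list, which is not a counting interval. The cause of the other changes was not tested, except where fewer genes or UMIs remained by construction. Thinning to 4000 UMIs, where the share of CD8-negative T cells differed by -14.4 points, was not among the 100. In run 2 the share of all cells differed by 0.506 points and that of CD8-negative T cells by -4.06 points, from 1 PEP-WT cell among 6 such T cells, so no gene could be compared there (a minimum of 10 cells per library was set). The number of genes compared changed between settings. Requiring *Cd4* left 49 lower genes of 3271 compared, and leaving out cells with UMIs of other types 34 higher of 2577. Thinning to 2000 UMIs gave 11 higher and 14 lower genes of 720 compared, an interferon median of -0.40 and a naive and homing median of 0.045. Thinning to 1000 UMIs gave 2 and 1 of 153 and an interferon median of -0.30, with no value for the naive list. The mean over cells of CPM gave an interferon median of -0.062. A minimum of 20 UMIs gave 288 and 264 of 7125 genes, and one of 100 UMIs 14 and 31 of 2284. A fold of 1.5 gave 401 and 354 of 4241. Settings chosen after seeing the data were leaving out the cell with most UMIs of each gene (72 higher and 122 lower of 4241) and leaving out cycling cells (40 and 28 of 2964, interferon median -0.083). The former can take a larger part of the counts from the library with fewer cells. Depth limits the report to genes with 50 UMIs or more, and cells of 1 pool cannot show variation between mice.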

Other observations

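T cell receptor segments were seen in few of the chosen cells, as the 3' assay captures little of the variable region. A *Trbv* UMI was found in 39 of 162 PEP-WT cells and 27 of 95 PEP-619WW cells, spread over 16 and 13 genes. *Trbv31* was the most frequent in PEP-WT, in 8 of 39 cells (20.5%, 9.3 to 36.5), and was found in 4 of 27 PEP-619WW cells (14.8%, 4.2 to 33.7). *Trbv12-2* was found in 3 of 39 PEP-WT cells and 8 of 27 PEP-619WW cells (29.6%). A *Trav* UMI was found in 31 and 24 cells, over 21 and 16 genes, and *Trav14d-3-dv8* was found in 5 and 3 cells, the most in PEP-WT and as many as *Trav14n-3* in PEP-619WW. No 1 segment made up most of the cells with a *Trbv* or *Trav* UMI in either library.

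Single cells with transcripts foreign to T cells were also present. One PEP-619WW cell held all 101 UMIs of the mast cell protease gene *Mcpt4*, which had none in PEP-WT, and another held 31 of 39 UMIs of the muscle gene *Ttn*. The 7 regulatory T cell genes compared had a median of -0.22 and the 4 class II genes one of 0.045.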
